A study of Mus musculus with 8 samples.

Results

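Interferon-stimulated genes were followed in mouse liver regenerating after partial hepatectomy (PHx), in a study that deleted Birc5, the gene of the cell-division and survival protein Survivin, with the interferon-inducible Mxcre. The set was a list of 43 named genes, matched to probes by RefSeq accession and read from the brightest probe of each. Of these, 40 were measured, among 18316 named genes on the arrays, of which 14142 were bright enough to test. Mx1, Mx2 and Oas1b had no probe matched to a RefSeq accession and were not analysed here.

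Total liver RNA was hybridised to 8 Agilent 1-colour arrays, 1 for each genotype at each of 4 times. The groups were Mxcre+ livers, which the series design calls Survivin-deleted, and Mxcre- livers, which it calls wild type, each at 0, 24, 36 and 48 h after PHx. All mice were of the 129/SV/B6 strain background, had undergone irradiation and marrow transplantation 2 months before, and had received poly(IC), a double-stranded RNA mimic that induces interferon, 1 week before. The hours after PHx and the poly(IC) interval are those of each sample's own labels, while a general protocol note can be read as placing the analysis 1 week after PHx, and the labels do not resolve this. Both genotypes carried the transplant and the inducer, and no group without poly(IC) was analysed here. The Mx promoter that drives the Cre responds to interferon in many cell types, so the deletion is not specific to hepatocytes, and resident blood-derived cells could be of donor or host origin. The labels give sex only as male or female, and do not say whether an array held 1 animal or a pool. With 1 array per group there is no spread between replicate livers: single-time differences are values without a test, and p-values measure how steady a difference was across times or between the genotypes.

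Type I interferons signal through the receptor chains Ifnar1 and Ifnar2 and the kinases Jak1 and Tyk2 to a complex that includes Stat2 and Irf9 and binds the interferon-stimulated response element. Interferon gamma signals through its own receptor to genes that carry the gamma-activated site. The induced genes encode sensors of viral RNA, enzymes and binding proteins that block viral RNA and protein synthesis, GTPases that attack intracellular microbes, antigen-processing proteins, and factors such as Irf7 and Usp18 that amplify or restrain the response. In liver, hepatocytes, Kupffer cells, endothelial cells and blood leukocytes all respond to interferon.

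Levels are log2 of the array's processed fluorescence signal minus that array's 75th percentile, so that 0 is the 75th percentile and 1 unit is a 2-fold difference for the same probe. They compare arrays for 1 gene and do not rank genes against each other. The share of spots well above background was 60.2% to 66.0% per array. The targeted gene Birc5 had log2 levels of -2.75, -3.42, -1.51 and -1.14 in Mxcre+ livers at 0, 24, 36 and 48 h, against -0.20, -0.48, 1.61 and 5.10 in Mxcre- livers. It was lower in Mxcre+ livers at each time. Arrays of 0 and 24 h lay on one slide and those of 36 and 48 h on the other, with both genotypes on each, so slide and early against late time cannot be told apart. The summed linear level of 4 Y-linked genes, relative to the 75th percentile, was 0.0437 to 0.0696 on both 0 h arrays and on the Mxcre+ arrays of 36 and 48 h, and 3.11 to 6.10 on the other 4. A marker of X inactivation, on the same scale, was 35.8 to 46.8 on the first 4 of these arrays and 5.22 to 21.8 on the other 4. Y-linked signal thus differed within the 36 h and 48 h pairs, between 24 h and 0 h, and in Mxcre- livers between 0 h and each later time. Its part in the genotype differences at 36 and 48 h and in the differences over time was not tested.

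Most of the 40 genes were lower in Mxcre+ liver before surgery and higher in Mxcre+ liver at 36 h. At 0 h, 36 of the 40 were lower in the Mxcre+ than in the Mxcre- liver, against 52.7% of all 14142 genes tested. Their median difference was -0.40 (log2, Mxcre+ minus Mxcre-), and that of all genes was -0.02. At 24 h, 27 were lower and 13 higher (48.5% of all genes were lower), with a median of -0.10 and an all-gene median of 0.0072. At 36 h the direction was the other way: 32 of 40 were higher in the Mxcre+ liver, against 44.1% of all genes, with a median of 0.29 and an all-gene median of -0.05. At 48 h, 27 were again lower and 13 higher (53.7% of all genes were lower), with a median of -0.10. Both lower at 0 h and higher at 36 h in Mxcre+ liver were 30 of the 40 genes, a pattern that 24.4% of all genes had. The times joined here are those with the medians furthest from 0, each from a single pair of arrays. The joint count thus largely repeats the counts above and is no further support. With arrays scaled by their medians, 30 of 40 were lower at 0 h, 34 higher at 36 h and 21 lower at 48 h.

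Most single differences were small. Past 2-fold at 0 h was 1 of 40, Psmb9, which was 2.04-fold lower in Mxcre+ liver (2.6% of all genes above background on both arrays were as much lower). At 24 h it was Zbp1, 2.03-fold higher, of 38 genes above background on both arrays (0.793% of all such genes). At 36 h they were Gbp2, 2.43-fold higher, and Ifi44 (2.21%), and at 48 h Gbp6, 2.18-fold lower (3.2%). A difference of 1 sign throughout was held by 4 of 40, Ddx58, Iigp1, Tap1 and Psmb9, each lower in Mxcre+ liver, where 16.1% of all genes kept 1 sign. These extremes were picked after their values were seen.

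**Figure D1:**
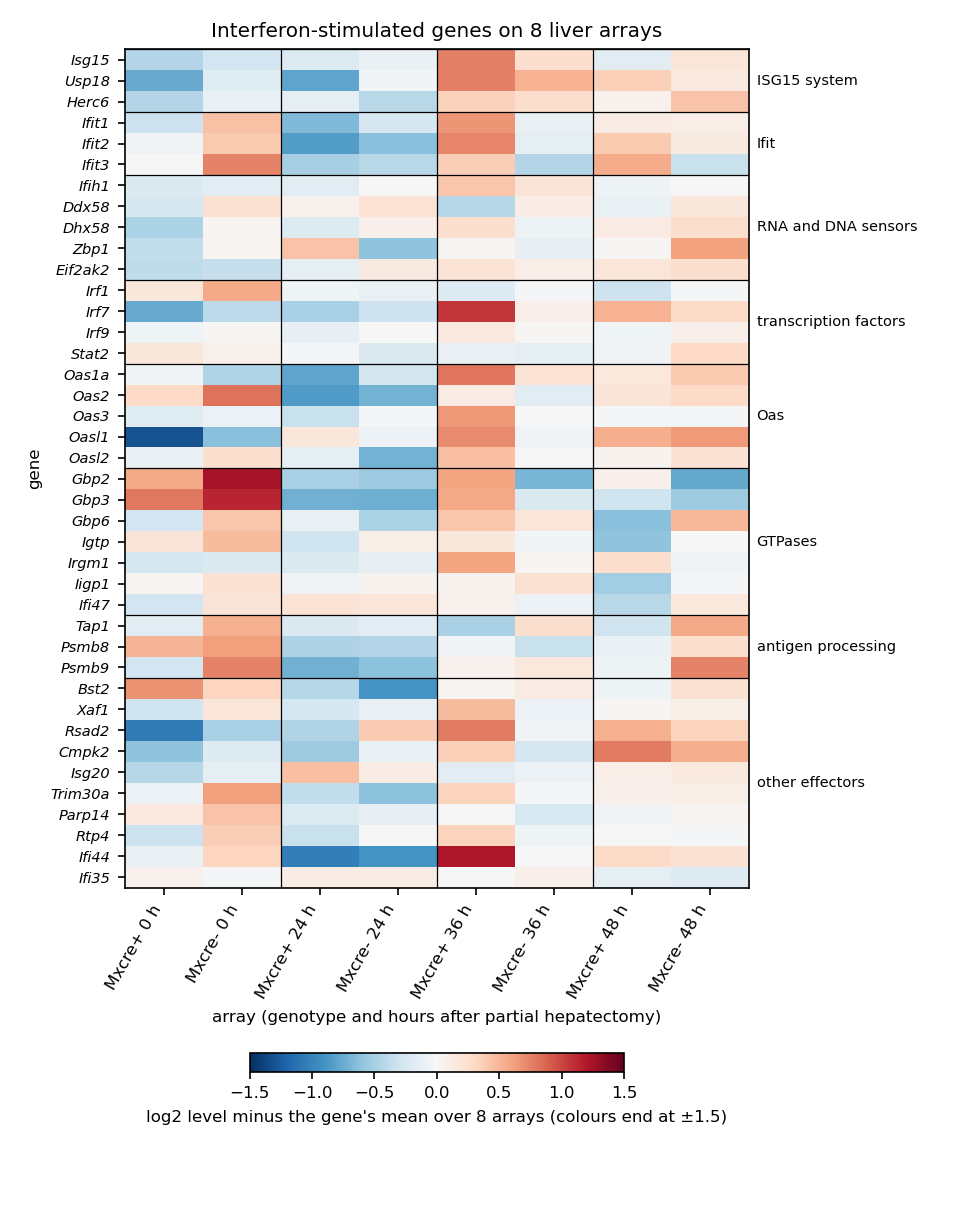
Log2 level of each of the 40 measured interferon-stimulated genes (rows, by role) on each of the 8 arrays (columns), minus the gene's own mean over the arrays, from blue (below) to red (above). The Mxcre+ 36 h array held the highest level of 15 of the 40 genes and the Mxcre- 0 h array that of 12, while the Mxcre+ arrays of 0 and 24 h held the lowest level of 12 genes each.

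The heatmap of centred levels shows where each gene peaked. The Mxcre+ 36 h array had the highest level of 15 genes, the Mxcre- 0 h array of 12 and the Mxcre- 48 h array of 7. No gene was lowest on the Mxcre- 0 h array, while 12 were lowest on the Mxcre+ 0 h array and 12 on the Mxcre+ 24 h array. Averaged over the 40 genes, the log2 level was 0.16, 0.03, 0.66 and 0.37 on the Mxcre+ arrays of 0, 24, 36 and 48 h, against 0.52, 0.10, 0.31 and 0.49 on the Mxcre- arrays. The mean was thus lowest at 24 h in both genotypes, and was highest at 36 h in Mxcre+ and at 0 h in Mxcre- livers. The range of a gene over the 8 arrays was 0.27 to 2.25 log2 units, with a median of 1.10 (0.90 for all genes), and exceeded 1 unit for 23 of the 40.

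**Figure D2:**
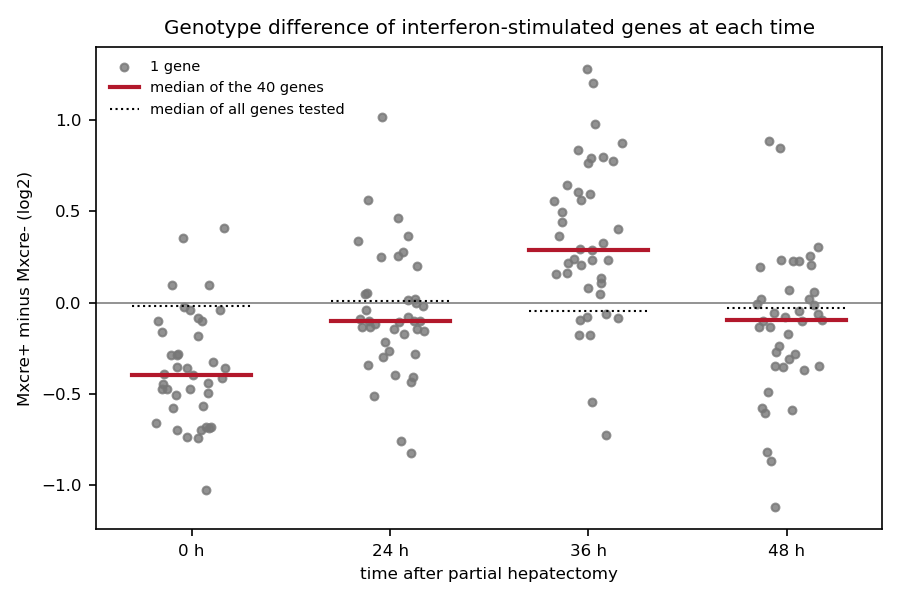
Difference in log2 level, Mxcre+ minus Mxcre-, of each of the 40 genes (points) at each time after PHx, with the median of the 40 (solid line) and of all 14142 genes tested (dotted line). The medians of the 40 were -0.40, -0.10, 0.29 and -0.10 at 0, 24, 36 and 48 h, with points on both sides of 0 at each time.

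In the plot of genotype differences the median lies below 0 at 0 h and above it at 36 h. Averaged over the 4 times, 0 of the 40 genes passed a test of the genotype difference with limma at an adjusted p of 0.05 (0% of all genes did). The targeted gene Birc5, with an average difference of -3.71, did not pass either. Not passing this test thus says little about the size of a difference. Unadjusted p was under 0.05 for 2 of 40, Tap1 and Ddx58, against 6.59% of all genes, and the smallest adjusted p was 0.75. The average difference was below 0 for 26 and above 0 for 14 (56.3% of all genes were below 0), with a median of -0.03, equal to the all-gene median to 2 decimals. Scaling by array medians turned this to 25 above and 15 below, with a median of 0.04. Without the 36 h pair 32 of 40 were below 0 (median -0.16), and without the 0 h pair 22 were above (median 0.02). On the slide of 0 and 24 h alone the median was -0.21, with 34 of 40 below 0, and on the slide of 36 and 48 h alone it was 0.08, with 25 above 0. With Y-linked signal as a covariate the median was -0.20, with 33 of 40 below 0. Y-linked genes had median genotype differences of 0.13, -0.41, -5.11 and -5.87 at 0, 24, 36 and 48 h. This fit thus leans on the 0 and 24 h pairs and cannot separate Y-linked signal from genotype at 36 and 48 h.

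Whether the genotype difference itself shifted over time was tested in 2 ways. For the difference after PHx against that at 0 h, 34 of the 40 genes had a positive estimate, against 48.9% of all genes, and the median was 0.41. None of the 40 passed (0.17% of all genes did), with a smallest limma adjusted p of 0.661, and unadjusted p was under 0.05 for 1 of 40 (6.68% of all genes). For 36 and 48 h against 0 and 24 h, 29 were positive (45.6% of all genes), the median was 0.22, and 0 of 40 passed (0% of all genes). Unadjusted p was under 0.05 for 9 of 40, against 8.49% of all genes. Of these 9, 8 estimates were positive and that of Bst2 was negative (-0.61 ± 0.18). The largest were 1.37 ± 0.34 for Gbp2, 1.25 ± 0.28 for Ifit3 and 1.21 ± 0.29 for Rsad2 (SE), each with a limma adjusted p of 0.577. The 0 h difference rests on 1 pair of arrays whose spread was not measured.

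Of 18 interferon genes listed, 12 had a named probe, and Ifnb1, Ifna4, Ifna12, Ifne, Ifnk and Ifng were above background on none of the 8 arrays. Ifna9, Ifna13 and Ifnz were above background on all 8 arrays, Ifna5 on 7, Ifna2 on 3 and Ifnl3 on 1. Ifnz had log2 levels of -1.82, -1.80, -2.64 and -2.03 in Mxcre+ livers at 0, 24, 36 and 48 h, against -1.89, -1.66, -2.39 and -2.09 in Mxcre- livers. Of the 5 that could be tested, Ifnz, a type I interferon, fell at 36 h against 0 h by 0.66 ± 0.14 (SE; limma adjusted p 0.0423), and no other passed a test. Near-identical interferon alpha genes may share probes, so their values are uncertain.

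No receptor or signalling gene passed the genotype test, while receptor chains for interferon lambda and gamma rose after surgery. Ifnar1, the signalling chain of the type I receptor, had log2 levels of 0.45, 0.44, -0.07 and 0.14 in Mxcre+ livers at 0, 24, 36 and 48 h, against 0.58, 0.32, 0.32 and 0.44 in Mxcre- livers. It was lower in Mxcre+ liver at 0, 36 and 48 h and higher at 24 h. Of the 11 genes in the list, 1 rose at 24 h against 0 h, 2 at 36 h and 2 at 48 h, and none fell (of all genes, 4.6%, 8.1% and 8.3% rose at these times). Ifnlr1, the specific chain of the interferon lambda receptor, was above background on the 6 arrays from 24 h on and on neither 0 h array, and had log2 levels of -4.84, -2.13, -1.46 and -1.20 in Mxcre+ livers at 0, 24, 36 and 48 h, against -4.22, -1.60, -1.82 and -1.36 in Mxcre- livers. Against the background level at 0 h it was at least 5.80-fold higher at 24 h, 6.82-fold at 36 h and 8.73-fold at 48 h (limma adjusted p 0.0221, 0.0177 and 0.00951). These bounds set the mean of a later time against the mean over the 0 h arrays of, on each array, the higher of the lowest signal still called above background and the probe's own signal. Ifngr2, a chain of the interferon gamma receptor, rose by 1.00 ± 0.20 at 36 h and by 1.03 ± 0.20 at 48 h against 0 h (SE; limma adjusted p 0.0394 and 0.0342).

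Upstream of interferon, Tlr3, the endosomal receptor that senses poly(IC), had log2 levels of -4.38, -4.45, -3.86 and -4.27 in Mxcre+ livers at 0, 24, 36 and 48 h, against -3.83, -4.11, -2.54 and -3.57 in Mxcre- livers. It was lower in Mxcre+ liver at each time, cleared background on 7 arrays, and passed no test over time. Of 14 sensor-pathway genes, 1 rose at 24 h, 2 rose at 36 h and 1 fell at 48 h, against 4.6%, 8.1% and 9.38% of all genes in these directions. Traf3, an adaptor, rose at 24 h (0.75 ± 0.14) and 36 h (0.72 ± 0.14), Tbk1, a kinase that activates Irf3, rose at 36 h (0.67 ± 0.15), and Mavs, the mitochondrial adaptor of the RNA sensors, fell by 0.73 ± 0.14 at 48 h (SE; limma adjusted p 0.0428, 0.0389, 0.049 and 0.0327). Among 13 negative regulators, Irf2, a repressor at interferon response elements, fell by 0.96 ± 0.12, 0.98 ± 0.12 and 0.95 ± 0.12 at 24, 36 and 48 h (limma adjusted p 0.0245, 0.0206 and 0.0157). Its level was 1.25, 0.35, 0.35 and 0.29 in Mxcre+ livers and 1.53, 0.51, 0.47 and 0.60 in Mxcre- livers, so both 0 h arrays stood above all later ones. No other negative regulator passed, and of all genes 5.11%, 8.18% and 9.38% fell at these times, so 1 of 13 was close to the share of all genes.

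Letters of the response elements were searched in the promoters. RefSeq windows from 250 bases before to 50 bases after the gene start (build GRCm38.p6) were matched for 32 of the 43 genes. The core of the interferon-stimulated response element, searched on both strands as GAAA, any 2 bases and GAAA again, was in 16 of the 32 windows (50%), against 3.99% of 27025 gene windows. The gamma-activated site, searched as TTCNNNGAA, which reads the same on both strands, was in 9 of 32 (28.1%), against 9.55%. A match of the 2 motifs overlapped in 1 gene, Bst2. The stretches below are shown because they hold the response element of genes from the Isg15, Ifit, Oas, GTPase and effector groups described next, and capitals mark each match (on the opposite strand it reads TTTC, any 2 bases and TTTC).

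Each line is read 5′ to 3′ on the gene's strand and lies upstream of the gene start, with the match in capitals and the neighbouring bases in lower case.
Isg15 (chr4:156200855-156200916, minus strand): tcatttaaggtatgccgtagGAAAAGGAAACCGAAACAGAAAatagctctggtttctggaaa
Ifit1 (chr19:34640765-34640833, plus strand): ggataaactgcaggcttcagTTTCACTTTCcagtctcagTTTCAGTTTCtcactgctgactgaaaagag
Ifit3 (chr19:34583353-34583436, plus strand): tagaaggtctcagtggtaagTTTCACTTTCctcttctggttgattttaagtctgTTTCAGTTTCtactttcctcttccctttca
Oas1a (chr5:120907526-120907565, minus strand): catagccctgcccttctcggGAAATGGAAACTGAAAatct
Oas3 (chr5:120777705-120777754, minus strand): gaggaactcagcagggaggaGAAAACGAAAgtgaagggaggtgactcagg
Bst2 (chr8:71537567-71537622, minus strand): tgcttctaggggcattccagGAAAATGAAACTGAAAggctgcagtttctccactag
Gbp2 (chr3:142620584-142620633, plus strand): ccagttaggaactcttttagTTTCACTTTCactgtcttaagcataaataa
Gbp3 (chr3:142559979-142560034, plus strand): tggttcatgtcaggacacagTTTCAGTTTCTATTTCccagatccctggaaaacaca
Irgm1 (chr11:48871421-48871470, minus strand): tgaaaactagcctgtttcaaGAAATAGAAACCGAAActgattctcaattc

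Isg15 held 3 overlapping matches, whose first bases lay 78 to 66 bases before its start, and Ifit1 and Ifit3 each held 2 separate ones. Oas1a, Gbp3, Irgm1 and Bst2 also held 2 overlapping matches, and Oas3 and Gbp2 held 1. The remaining 7 of the 16 genes with a match were Ifih1, Ddx58, Eif2ak2, Stat2, Igtp, Rsad2 and Trim30a. Of the 5 genes that passed a test over time, described below, Gbp3 and Bst2 held the response element, Psmb8 held only the gamma-activated motif, Oasl1 held neither in this window, and Oas2 had no window. The 16 genes with a match had a median genotype difference of 0.53 at 36 h, and 14 were higher in Mxcre+ liver. The 16 genes with a window and no match had a median of 0.23, with 11 higher. At 0 h the medians were -0.22 with and -0.41 without a match. These medians describe the genes and were not tested, and a match is a run of letters, not a measured binding site.

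On their brightest probes, the 3 genes of the Isg15 system were higher at 36 h than at 0 h in both genotypes. Isg15, a ubiquitin-like protein attached to other proteins, had log2 levels of 0.68, 0.92, 1.88 and 0.96 in Mxcre+ livers at 0, 24, 36 and 48 h, against 0.84, 1.02, 1.38 and 1.31 in Mxcre- livers. Usp18, the protease that removes Isg15 and also restrains the type I receptor, had -0.40, -0.44, 1.12 and 0.72 in Mxcre+ livers and 0.18, 0.32, 0.88 and 0.51 in Mxcre- livers. Both had their highest level on the Mxcre+ 36 h array, and Usp18 was lower in Mxcre+ liver at 0 and 24 h and higher at 36 and 48 h. Against 0 h, the 36 h differences were 0.87 ± 0.23 for Isg15 and 1.11 ± 0.31 for Usp18 (SE), which missed the threshold (limma adjusted p 0.0639 and 0.0705). Herc6, an Isg15 ligase in mouse, differed between genotypes by -0.33, 0.28, 0.08 and -0.37 at the 4 times. Its 36 h difference against 0 h was 0.58 on this probe but -0.09 on its other probe, also above background on all 8 arrays.

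The Ifit genes, whose proteins bind foreign RNA and block its translation, showed the contrast between 0 and 36 h in each member. Ifit1 had log2 levels of -1.34, -1.69, -0.37 and -0.91 in Mxcre+ livers at 0, 24, 36 and 48 h, against -0.59, -1.28, -1.14 and -0.93 in Mxcre- livers. Ifit3 had -1.72, -2.22, -1.36 and -1.17 in Mxcre+ livers and -0.98, -2.14, -2.16 and -2.06 in Mxcre- livers. All 3 members were lower in Mxcre+ liver at 0 h (median -0.74) and higher at 36 h (0.80). At 24 h Ifit1 and Ifit3 differed by -0.41 and -0.08. At 48 h all 3 were higher on their brightest probes (median 0.26, the value of Ifit2), but the other probe of Ifit2 gave -0.01. Ifit2 was not above background on either 24 h array, and was at least 1.86-fold lower at 24 h than at 0 h, which did not pass (limma adjusted p 0.157). Ifit2 and Ifit3 are neighbouring genes on chromosome 19, and both Ifit1 and Ifit3 carry 2 matches to the response element in the sequences above.

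Of the 5 sensors of viral nucleic acid, none passed a test. Ifih1, a sensor of long double-stranded RNA that also recognises poly(IC), had log2 levels of 1.46, 1.51, 2.09 and 1.60 in Mxcre+ livers at 0, 24, 36 and 48 h, against 1.50, 1.66, 1.87 and 1.68 in Mxcre- livers. Its genotype differences lay between -0.15 and 0.22. Ddx58, the related RNA sensor RIG-I, had 1.52, 1.84, 1.33 and 1.66 in Mxcre+ livers and 2.00, 1.97, 1.88 and 1.93 in Mxcre- livers. Ddx58 was lower in Mxcre+ liver at each time on its brightest probe, with an average of -0.36 ± 0.11 (SE; limma adjusted p 0.75), but its other 3 probes were each higher in Mxcre+ liver at 48 h. Dhx58, Eif2ak2 (the RNA-activated kinase PKR) and Zbp1 were lower in Mxcre+ liver at 0 h and higher at 36 h. Zbp1, a sensor of Z-form nucleic acid linked to cell death, stood out at 24 h with 0.43 in Mxcre+ against -0.59 in Mxcre- liver.

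Among the transcription factors, Irf7 had the widest genotype difference at 36 h and none passed a test. Irf7, the amplifier of interferon alpha production, had log2 levels of -1.08, -0.81, 0.74 and 0.20 in Mxcre+ livers at 0, 24, 36 and 48 h, against -0.72, -0.63, -0.24 and -0.03 in Mxcre- livers. It was higher at 36 and 48 h than at 0 h in both genotypes, with a 36 h difference of 1.15 ± 0.35 that missed the threshold (SE; limma adjusted p 0.0834). Its genotype difference was -0.36, -0.17, 0.98 and 0.23 at the 4 times. Irf1, a factor induced most strongly by interferon gamma, had 3.04, 2.81, 2.67 and 2.55 in Mxcre+ livers and 3.44, 2.76, 2.85 and 2.83 in Mxcre- livers. Irf1 was lower at 24, 36 and 48 h than at 0 h on every array, with differences of -0.46 ± 0.15, -0.48 ± 0.15 and -0.54 ± 0.15 that did not pass (limma adjusted p 0.123, 0.0915 and 0.0699). Stat2, which joins Irf9 on the response element, had 2.20, 2.02, 1.93 and 1.98 in Mxcre+ livers and 2.10, 1.82, 1.88 and 2.33 in Mxcre- livers, and its largest genotype difference was -0.35 at 48 h. Irf9 differed between genotypes by at most 0.14.

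The Oas genes encode enzymes that sense double-stranded RNA and activate RNase L, and catalytically inactive relatives. Oas1a had log2 levels of 0.59, -0.16, 1.43 and 0.78 in Mxcre+ livers at 0, 24, 36 and 48 h, against 0.18, 0.35, 0.83 and 1.02 in Mxcre- livers. Oasl1, an inactive relative that in mouse represses Irf7 translation, had -1.08, 0.40, 0.94 and 0.77 in Mxcre+ livers and -0.40, 0.14, 0.18 and 0.87 in Mxcre- livers. Oasl1 rose at 48 h against 0 h by 1.56 ± 0.35 (SE; limma adjusted p 0.0459), with both 48 h arrays above both 0 h arrays. Oas2 had -1.67, -2.82, -1.85 and -1.78 in Mxcre+ livers and -1.17, -2.68, -2.14 and -1.68 in Mxcre- livers. Oas2 fell at 24 h against 0 h by 1.33 ± 0.21 (SE; limma adjusted p 0.0315), and its lowest levels in each genotype were those of 24 h. All 5 measured Oas genes were higher in Mxcre+ liver at 36 h (median 0.60), 4 of 5 were lower at 0 h (median -0.35), and all 5 were lower at 48 h (median -0.10). Oas1a was the exception at 0 h, higher by 0.41. Oas3 was not above background on the Mxcre+ 24 h array.

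The interferon-inducible GTPases, which attack membranes around intracellular microbes, followed unlike courses. Gbp3 had log2 levels of 0.94, -0.57, 0.72 and -0.15 in Mxcre+ livers at 0, 24, 36 and 48 h, against 1.30, -0.58, -0.07 and -0.39 in Mxcre- livers. It fell at 24 h by 1.69 ± 0.29 and at 48 h by 1.39 ± 0.29 against 0 h (SE; limma adjusted p 0.0357 and 0.038), 2 comparisons that share the 0 h arrays. Gbp2, which lies near Gbp3 on chromosome 3, had 0.49, -0.56, 0.51 and -0.00 in Mxcre+ livers and 1.15, -0.62, -0.77 and -0.85 in Mxcre- livers. Its course in Mxcre- liver stayed low after surgery, while the Mxcre+ liver of 36 h was close to that of 0 h, and the genotype difference there was 1.28. Gbp6 had -2.12, -1.95, -1.42 and -2.47 in Mxcre+ livers and -1.42, -2.32, -1.65 and -1.34 in Mxcre- livers, with a 48 h difference of -1.12 opposite in sign to that of Gbp2 at that time (0.85).

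Igtp, an immunity-related GTPase, had log2 levels of 3.90, 3.40, 3.88 and 3.11 in Mxcre+ livers at 0, 24, 36 and 48 h, against 4.18, 3.80, 3.67 and 3.71 in Mxcre- livers. Iigp1, of the same family, had 5.72, 5.63, 5.73 and 5.16 in Mxcre+ livers and 5.90, 5.73, 5.91 and 5.66 in Mxcre- livers. Their ranges over the 8 arrays were 1.07 and 0.74, and both were lowest on the Mxcre+ 48 h array. All 7 GTPases were lower in Mxcre+ liver at 0 h (median -0.36), and 6 of 7 were higher at 36 h (median 0.23), the exception being Iigp1. Irgm1 was higher by 0.56 and Ifi47 by 0.16 at 36 h.

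Of the antigen-processing genes, 1 of 3 was higher in Mxcre+ liver at 36 h, and 3 of 3 were lower at 0, 24 and 48 h. Psmb8, a catalytic subunit of the immunoproteasome, had log2 levels of 3.44, 2.46, 2.89 and 2.82 in Mxcre+ livers at 0, 24, 36 and 48 h, against 3.54, 2.48, 2.59 and 3.17 in Mxcre- livers. It fell at 24 h against 0 h by 1.01 ± 0.18 (SE; limma adjusted p 0.0388), and its second probe differed by -1.01. At 36 h it stood at -0.75 ± 0.18, just outside the threshold (limma adjusted p 0.0546). Psmb9, another immunoproteasome subunit, had 2.13, 1.69, 2.47 and 2.33 in Mxcre+ livers and 3.16, 1.79, 2.57 and 3.15 in Mxcre- livers. Tap1, a subunit of the peptide transporter, had -1.90, -1.96, -2.23 and -2.04 in Mxcre+ livers and -1.21, -1.92, -1.504 and -1.18 in Mxcre- livers. Psmb9 and Tap1 were lower in Mxcre+ liver at each time, with differences of -0.10 to -1.03 and of -0.04 to -0.87, and their average differences of -0.51 ± 0.20 and -0.58 ± 0.16 did not pass (limma adjusted p 0.75 and 0.75). Psmb9, Tap1 and Psmb8 are consecutive genes on chromosome 17, and only Psmb8 was higher in Mxcre+ liver at 36 h, by 0.30.

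Among the other effectors, Bst2 fell at 24 h and Ifi44 had the widest genotype gap at 36 h. Bst2, or tetherin, which holds budding virus at the cell surface, had log2 levels of 5.23, 4.13, 4.60 and 4.48 in Mxcre+ livers at 0, 24, 36 and 48 h, against 4.88, 3.67, 4.68 and 4.79 in Mxcre- livers. It fell at 24 h against 0 h by 1.16 ± 0.23 (SE; limma adjusted p 0.0469), and its levels in both genotypes at 36 and 48 h stood between those of 24 and 0 h. Parp14, an ADP-ribosyltransferase, had 2.45, 2.10, 2.31 and 2.25 in Mxcre+ livers and 2.74, 2.18, 2.08 and 2.35 in Mxcre- livers. Ifi44, an interferon-induced protein, had -1.94, -2.86, -0.61 and -1.53 in Mxcre+ livers and -1.498, -2.72, -1.81 and -1.61 in Mxcre- livers. The Mxcre+ 36 h array was above every other array for Ifi44, and the genotype difference was 1.20. Rsad2, or viperin, differed between genotypes by -0.57, -0.83, 0.84 and 0.19, and its chromosome 12 neighbour Cmpk2, a nucleotide kinase, by -0.41, -0.44, 0.61 and 0.23. Of the 10 genes in this group, 8 were lower in Mxcre+ liver at 0 h and 7 higher at 36 h (medians -0.43 and 0.38), and Ifi35 differed by no more than 0.10 at any time.

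**Figure D3:**
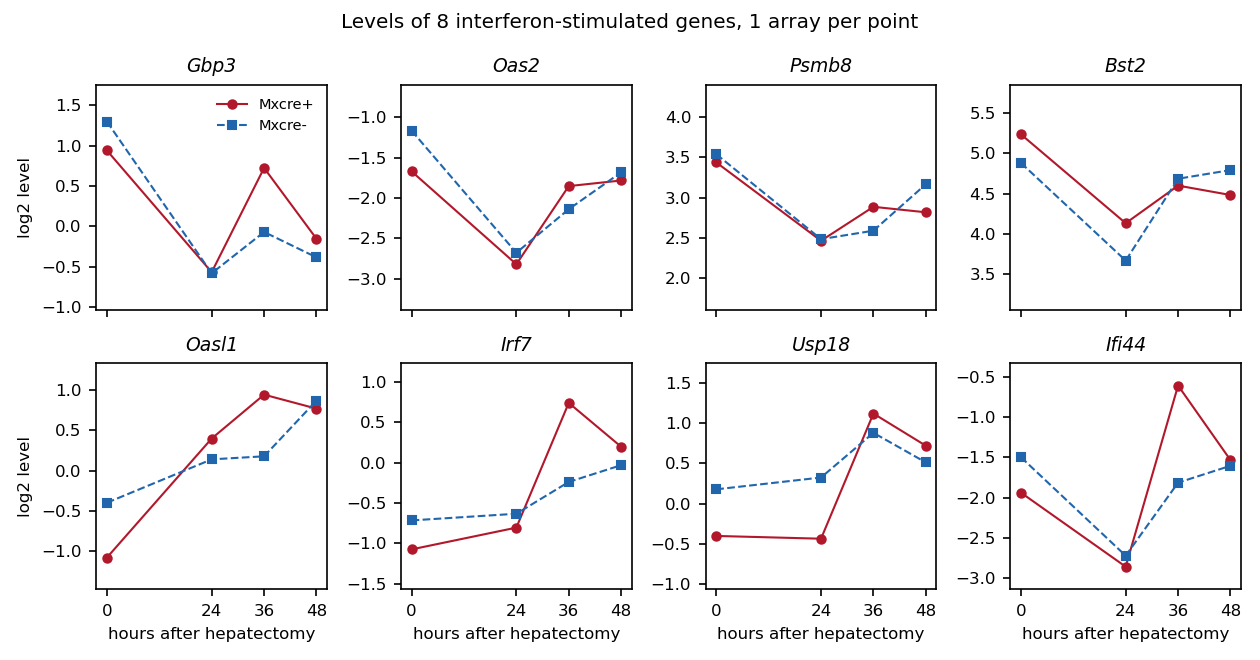
Log2 level, relative to the array's 75th percentile, of 8 genes against hours after PHx in Mxcre+ (red circles) and Mxcre- (blue squares) livers, 1 array per point and an equal span on each vertical axis. Gbp3, Oas2, Psmb8 and Bst2 were lower at 24 h than at 0 h in both genotypes, while Oasl1, Irf7 and Usp18 were higher at 36 and 48 h than at 0 h.

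The time courses of the 8 genes show the 4 that passed at 24 h, Oasl1, Usp18, and Irf7 and Ifi44, which were picked after their values were seen. Against 0 h, 4 of 40 fell and 0 rose at 24 h, where 9.71% of all genes passed, 5.11% falling and 4.6% rising. The share called, in either direction, was thus close to that of all genes. A difference below 0 was found for 25 of the 40 (51.2% of all genes), and the median was -0.16. At 36 h, 0 of 40 passed, against 16.3% of all genes (8.1% rose and 8.18% fell), with 26 above 0 (46.7% of all genes) and a median of 0.13. At 48 h, 1 rose and 1 fell (8.3% and 9.38% of all genes), with 24 above 0 (45.3% of all genes) and a median of 0.05. Unadjusted p was under 0.05 for 14, 13 and 10 of the 40 at 24, 36 and 48 h, against 30.8%, 37.6% and 36.7% of all genes. Across any change over time, 0 of 40 passed where 9.93% of all genes did, and unadjusted p was under 0.05 for 7 (34% of all genes). The share of these genes called was below that of all genes at 36 and 48 h and for any change.

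All 4 calls at 24 h were lost when 1 array or the pair of 36 or 48 h was left out. They were also lost without the filter on dim probes and on the slide of 0 and 24 h alone. The 24 h difference itself rests only on the arrays of 0 and 24 h. Leaving out arrays of 36 or 48 h, or the filter, could thus change its p-value but not its size or direction. Of all genes, 1373 passed at 24 h in the main setting. This became 0 without the 36 h pair, 514 without the 48 h pair, 572 without the filter and 0 on that slide alone. The loss was thus not limited to these 4 genes. With 1 array of 0 or 24 h left out, that time rests on 1 array, and the 4 differences kept their direction. Over the alternatives the limma adjusted p was 0.0257 to 0.222 for Bst2, 0.0196 to 0.196 for Psmb8, 0.0189 to 0.185 for Gbp3 and 0.0163 to 0.175 for Oas2, and the Oas2 difference was -0.36 with normexp background, which also ended its call. The calls of Oasl1 and Gbp3 at 48 h were lost without any 1 array of 0, 24 or 48 h and without the filter, and the Oasl1 difference was 1.03 with normexp background.

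Within each genotype the change over time is given without a test, the tests of a shifted genotype difference being those above. From 0 to 36 h the median change of the 40 genes was 0.49 in Mxcre+ livers, with 29 genes higher at 36 h, and -0.21 in Mxcre- livers, with 14 higher. From 24 to 36 h it was 0.59 in Mxcre+ livers (32 higher) and 0.12 in Mxcre- livers (27 higher). Taking both genotypes together, 34 of 40 were higher at 36 than at 24 h (47.6% of all genes), with a median of 0.39, but 0 passed (0.212% of all genes). Unadjusted p was under 0.05 for 12 of 40 (14.9% of all genes), and the smallest limma adjusted p was 0.231, for Ifi44. Without the Mxcre+ 36 h array the count was 24 and the median 0.07. From 36 to 48 h the median change was -0.27 in Mxcre+ livers, with 33 lower, and 0.18 in Mxcre- livers, with 30 higher, and 0 of 40 passed (0.106% of all genes), with unadjusted p under 0.05 for 1 (9.05%). The median against 0 h was -0.09 at 36 h without the Mxcre+ 0 h array and -0.09 without the Mxcre+ 36 h array. It was -0.16 at 48 h without the Mxcre+ 0 h array.

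A longer list of further interferon-stimulated genes, 58 of 71 tested, was measured beside them. Of these, 48 were lower in Mxcre+ liver at 0 h (median -0.28) and 39 higher at 36 h (0.20). Over time, 3 fell at 24 h, 3 rose and 4 fell at 36 h, and 4 rose and 5 fell at 48 h. Of all genes, 5.11% fell at 24 h, 8.1% rose and 8.18% fell at 36 h, and 8.3% rose and 9.38% fell at 48 h, so the counts of this list were close to or below the shares of all genes. Of those that fell, Tapbp, the tapasin that loads peptides, fell by 0.72 ± 0.13, 0.80 ± 0.13 and 0.58 ± 0.13 at 24, 36 and 48 h (limma adjusted p 0.0378, 0.0283 and 0.0436). Psmb10, the remaining immunoproteasome catalytic subunit, fell by 0.98 ± 0.19 and 0.99 ± 0.19 at 36 and 48 h, H2-K1, a class I heavy chain, by 0.79 ± 0.15 at 48 h, and Gbp7 by 1.32 ± 0.21 and 1.18 ± 0.21 at 24 and 48 h. Trim12a, of the antiviral Trim family, fell by 1.26 ± 0.20 and 1.03 ± 0.20 at 24 and 36 h, and Trim14, an adaptor in antiviral signalling, by 0.96 ± 0.14 and 0.60 ± 0.14 at 36 and 48 h. The limma adjusted p of these falls was 0.0244 to 0.0467. Those that rose were Ly6a, a surface antigen of progenitor and immune cells, by 1.49 ± 0.32 and 1.59 ± 0.32 at 36 and 48 h, Lgals3bp, a secreted glycoprotein, by 0.85 ± 0.15 and 0.91 ± 0.15, Ly6e by 1.12 ± 0.23 and Ifi27l2a by 1.45 ± 0.32 at 48 h, and Pnpt1, a mitochondrial RNA-processing enzyme, by 0.61 ± 0.13 at 36 h (limma adjusted p 0.024 to 0.043).

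Markers of blood and resident immune cells differed between the same pairs of arrays. Neutrophil markers had median genotype differences of -3.11, -0.91, 1.20 and 1.79 at 0, 24, 36 and 48 h over 8 genes, of which 8 were lower at 0 h and 5 higher at 36 h. Kupffer cell and macrophage markers had -0.79, -0.50, 0.89 and 0.30 over 7 genes, of which 7 were lower at 0 h and 7 higher at 36 h. Monocyte markers had -0.97, -0.02, 0.69 and 0.66 over 5 genes, of which 4 were lower at 0 h and 5 higher at 36 h.

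The medians of these 3 lists had the sign of the interferon-stimulated genes' median at 0, 24 and 36 h, and the opposite sign at 48 h. The leukocyte marker Ptprc had genotype differences of -0.93, -0.09, 0.52 and -0.30 over the same times, of the same sign as that median at each. T and NK cell markers had medians below 0 at each time (-0.75, -0.16, -0.29 and -0.49 over 9 genes), and hepatocyte markers stayed near 0 (0.14, -0.21, -0.11 and 0.01 over 4 genes). B cell markers had -0.42, 0.23, -0.40 and -0.43, and plasmacytoid dendritic cell markers -0.04, -0.04, -0.71 and 0.05, over 4 genes each. The T and NK, B and plasmacytoid medians at 36 h were thus opposite in sign to that of the interferon-stimulated genes. Endothelial markers had -0.21, -0.003, 0.03 and -0.0007 over 5 genes. Summed over its markers on a linear scale relative to the 75th percentile, the neutrophil list ranged over 8.12 to 85.0 in Mxcre+ livers and 24.8 to 65.5 in Mxcre- livers, the Kupffer and macrophage list over 28.6 to 50 in Mxcre+ livers and 29.4 to 61.7 in Mxcre- livers and the monocyte list over 9.45 to 41.7 in Mxcre+ livers and 12.3 to 26.8 in Mxcre- livers. The monocyte sum at 0 h, 41.7 in the Mxcre+ and 26.8 in the Mxcre- liver, ran against that list's median difference, since Ly6c2 was higher in Mxcre+ liver by 0.69 while the other 4 markers were lower. The hepatocyte list ranged over 1298 to 1611 in Mxcre+ livers and 1323 to 1540 in Mxcre- livers. Ncr1 and Pax5, markers of NK and B cells, were not above background on any array. Of all genes, 5.11%, 8.18% and 9.38% fell against 0 h at 24, 36 and 48 h. At these times 3, 6 and 6 of the 9 T and NK cell markers fell and none rose (limma adjusted p under 0.05). The part of these cells in the differences between genotypes and over time was not tested, and in whole liver fewer cells of a type and less RNA per cell cannot be told apart.

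**Figure D4:**
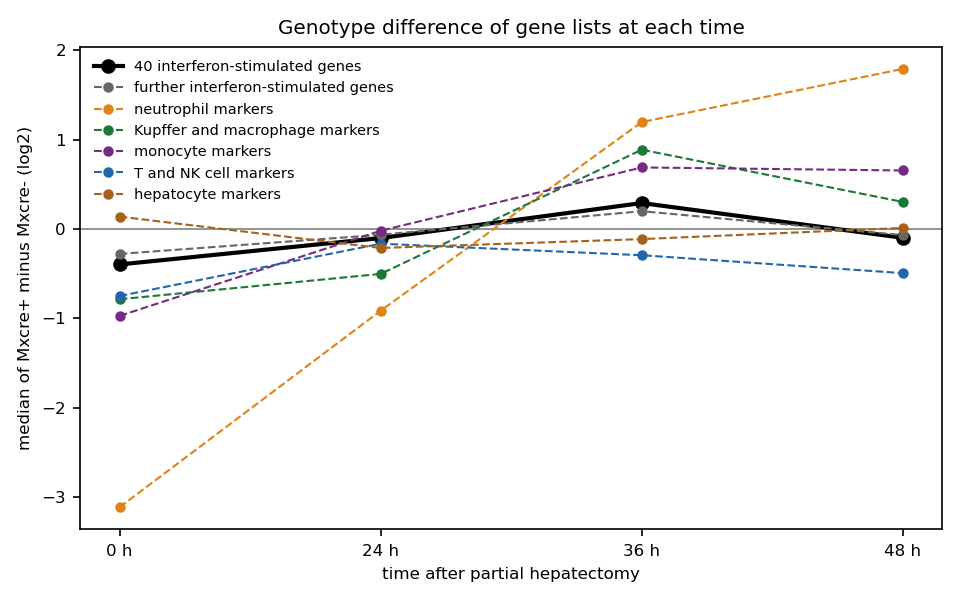
Median difference in log2 level, Mxcre+ minus Mxcre-, of the 40 interferon-stimulated genes (thick black line), of further interferon-stimulated genes and of 5 lists of cell-type markers, at each time after PHx. The neutrophil, Kupffer and monocyte lines lie below 0 at 0 h and above it at 36 h, as does that of the interferon-stimulated genes.

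The plot of list medians sets these differences side by side: the range over the 4 times was widest for the neutrophil markers. Of 12091 other genes above background on every array, the 5 whose levels over the 8 arrays were most alike to the mean of the 40 were Phactr4 (Pearson r 0.92), Ms4a6c (0.92), Zap70 (0.91), H2bc14 (0.88) and Ms4a6b (0.87). Zap70 is a T-cell receptor kinase and Ms4a6b and Ms4a6c are membrane proteins of immune cells. These correlations are a description over 8 arrays that share genotype, time and slide, and were the highest of those computed.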

How the data were processed

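The 8 samples were grouped by the genotype and time in their labels. Per the file headers, the scanner files hold fluorescence intensity that Agilent Feature Extraction 10.7.3.1 had background-subtracted and detrended. Arrays had not been normalised to each other. The deposited matrix holds log2 values whose scale and centring are not stated. Its columns each had a median of 5.51 and matched log2 of their own array (r of at least 0.999), and it served as an alternative. Control and outlier-marked spots were dropped. Of 41174 probes 41056 were kept, and 26839 matched a RefSeq accession. The brightest probe stood for a gene, and 6502 genes had several. Levels are log2 intensity minus the array's 75th percentile. No spot was saturated (0), and the number of arrays limits the precision.

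Genes well above background on at least 2 arrays (14142) were tested with limma 3.58.1 in R 4.3.3. The additive model of time and genotype had 3 residual degrees of freedom, and models with a genotype-by-time term had 2. Benjamini-Hochberg adjusted p under 0.05 was called. The code was tested on simulated data. All 40 members measured entered the tests, 38 of them above background on every array. The list of 43, the role groups, the pathway and marker lists and the tests were chosen with earlier results of these data known. Values of all arrays were planned for Mx1, the 2 members of highest mean level in each role group, members past a test, the 5 with the largest average genotype difference, Ifnar1, Tlr3 and pathway genes past a test, and for a gene that is not reported here. Mx1 had no matched probe. Alternatives changed the scaling, background, source, filter, probe, slide and arrays used.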

Additional observations from a re-analysis of the deposited data

How the results depend on the processing

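None of the 6 calls of members against 0 h turned its sign under an alternative, and no alternative was run for the other genes named. Leaving out the filter, or arrays of a time not compared, could not have turned a sign. The calls of members depended on the alternatives, and so did those of all genes, which for 24 h are given above. At 24 h the 4 members called fell to 0 without a filter on dim probes, without the 36 h pair, without the 48 h pair and on slide 1 alone, and to 0 (range 0 to 0) when single arrays were left out. At 36 h the count of 0 became 4 with array medians, 2 with normexp background and 5 with genes above background on all 8 arrays. Of all genes tested, 2586, 2509 and 2814 passed in these settings, against 2303 in the main one. At 48 h the count of 2 became 4 with normexp, 0 without a filter, 0 without the 24 h pair, and 0 to 2 with single arrays left out, while the median of 0.05 became 0.19 with array medians and -0.16 to 0.31 with single arrays left out. Calls of all genes at 48 h went from 2501 to 2779 with normexp, 1556 without a filter and 985 without the 24 h pair. Members called for any change over time were 1 with normexp and 3 with genes above background on all 8 arrays. The all-gene counts for any change in these settings are not given here. The 36 against 24 h median lay between 0.0671 and 0.7449 with single arrays left out. The shift of the genotype difference to late times was 0.57 without the 48 h pair and 0.0609 to 0.5689 with single arrays left out.

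Array-median scaling moved the all-gene median genotype difference at 0 h to 0.09. It left 30 of 40 members lower in Mxcre+ liver there and 34 of 40 higher at 36 h, and over the other 4 scalings, sources and probe choices these counts were 34 or 35, and 32 or 33. The genotype median was -0.21 on slide 1 alone and 0.08 on slide 2 alone. It was -0.20 with Y-linked signal as a covariate, a fit that leans on the 0 and 24 h pairs. Slide in place of time as a block left the genotype median at -0.03. Each slide and each time held both genotypes equally, so this value could not change and is no check. Normexp used median spot signals, since the files hold no mean signal. The labels carry no replicate numbers, so arrays could be paired only by time, as the genotype test with time in the model already did. Without replicates, and with dim genes bounded by background, small changes were not detectable here.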
